A study of Mus musculus with 6 samples.

Results

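The cytoskeletal genes described here are 10 members of the actin and microtubule systems: the cytoplasmic actins Actb and Actg1, the actin crosslinker Actn1, the alpha-tubulins Tuba1a, Tuba1b and Tuba1c, and the beta-tubulins Tubb2a, Tubb2b, Tubb5 and Tubb6. They were chosen by name and found by Ensembl identifier among the 22556 genes listed for each mouse, and all 10 were listed in all 6 mice and passed the filter on low values, a mean over the mice of 1 TPM or more. TPM, the unit of the deposited values, is scaled to the same total in every library and corrected for gene length, so levels can be set beside each other between genes. The pancreas of 6 wild type C57BL/6 mice, labelled post natal week 8, was measured by RNA sequencing. Per the labels, 2 saline mice received saline, 2 AP mice received cerulein (caerulein, a secretagogue that in excess injures the acinar cells and sets off acute pancreatitis), and 2 polyI:C-pretreated AP mice, called pretreated mice from here on, received polyI:C, a double-stranded RNA mimic, plus cerulein. In the study's model, caerulein was injected 10 times, 1 h apart, the polyI:C dose was 10 mg/kg, and tissue was taken 24 h after the first caerulein injection. Because no group received polyI:C without caerulein here, a change between the AP groups is a change on top of pancreatitis. The labels give the mice of a group as separate samples and say no more about how they were kept or handled.

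Actin monomers assemble into filaments that lie under the cell membrane, and in pancreatic acinar cells a dense web of them lines the apical surface where zymogen granules are released. Alpha- and beta-tubulin pair into dimers, which build the microtubules along which granules and other cargo travel. Both systems are expressed in nearly every cell type, which is why Actb and tubulins are often used as reference genes and loading controls. The study normalised its RT-qPCR to Rpl32, and GAPDH was the loading control of its immunoblots of cultured 266-6 acinar cells but not of those of pancreas, so Rpl32, Gapdh and other common reference genes were set beside the members.

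The isoforms of a family differ little in coding sequence, and these differences decide which reads can be told apart. Actb and Actg1 are 88.7% identical over their 1128 coding bases, with 128 differences. The first 30 coding bases (GENCODE M21, GRCm38) are shown because they encode the N-terminal stretch by which the actin proteins differ, with the bases that differ between both genes in capitals.
Actb: atggaTgaCgaTatcgcTgcGctGgtcGtC
Actg1: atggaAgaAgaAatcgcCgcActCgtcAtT
Here 8 of 30 bases differ. The tubulins share a start of another kind, shown because the first 4 codons, in capitals, are the stretch through which newly made tubulin chains are recognised by TTC5 when cells with excess tubulin degrade the mRNA.
Tuba1a: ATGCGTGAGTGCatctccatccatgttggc
Tuba1b: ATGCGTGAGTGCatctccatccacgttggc
Tuba1c: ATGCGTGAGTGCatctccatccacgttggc
Tubb2a: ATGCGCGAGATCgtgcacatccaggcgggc
Tubb2b: ATGCGAGAGATCgtgcacattcaggcgggc
Tubb5: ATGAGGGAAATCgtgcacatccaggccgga
The 3 alpha-tubulins had the same 12 capital bases, while the 3 beta-tubulins shown spelled theirs differently. Across the whole coding sequence Tuba1a and Tuba1b were 98.3% identical, Tuba1b and Tuba1c 97.9%, Tubb2a and Tubb2b 96.5%, and Tubb5 and Tubb6 80.2%. Of all 100-base stretches in the exons, 65.1% of Tuba1a, 62.1% of Tuba1b, 46.0% of Tuba1c, 36.9% of Tubb2a, 26% of Tubb2b and 29.9% of Actg1 also occurred in another gene, against 0.644% of Actb and 0% of Actn1, Tubb5 and Tubb6. How reads that fit several genes were counted is not given in the sources used here, so the split between Tuba1a, Tuba1b and Tuba1c, and between Tubb2a and Tubb2b, is uncertain, while the values of Actb, Actn1, Tubb5 and Tubb6 do not depend on it or hardly do.

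Before the results, the libraries differed in ways that touch them. The number of reads, estimated from the spacing of low TPM values, was 3296874 and 3974079 for saline mice and from 6934594 to 10852317 in the others, so low genes are least precise in saline mice. PolyI:C-pretreated AP replicate 2 stood apart by 10 genes of intestinal epithelium, a list added after the values were seen, with a summed level of 3551 TPM against 12.3 to 34.2 TPM in the other 5 mice. This library held Fabp1 at 1430 TPM, and the intestinal regulators Cdx1 and Cdx2 were listed at 0 in the other 5 libraries. Results on the pretreated group are therefore given with and without this mouse. The acinar regulators Ptf1a, Rbpjl, Bhlha15 and Nr5a2 were detected in all 6 libraries, at 40.8 TPM or more in each. With 2 mice per group, an exact two-sided permutation test cannot go below p = 0.33, so p-values come from limma fitted over all 16778 tested genes, with Benjamini-Hochberg adjustment, and a gene was called raised or lowered where it passed an adjusted p of 0.05 and moved by 2-fold or more.

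**Figure D1:**
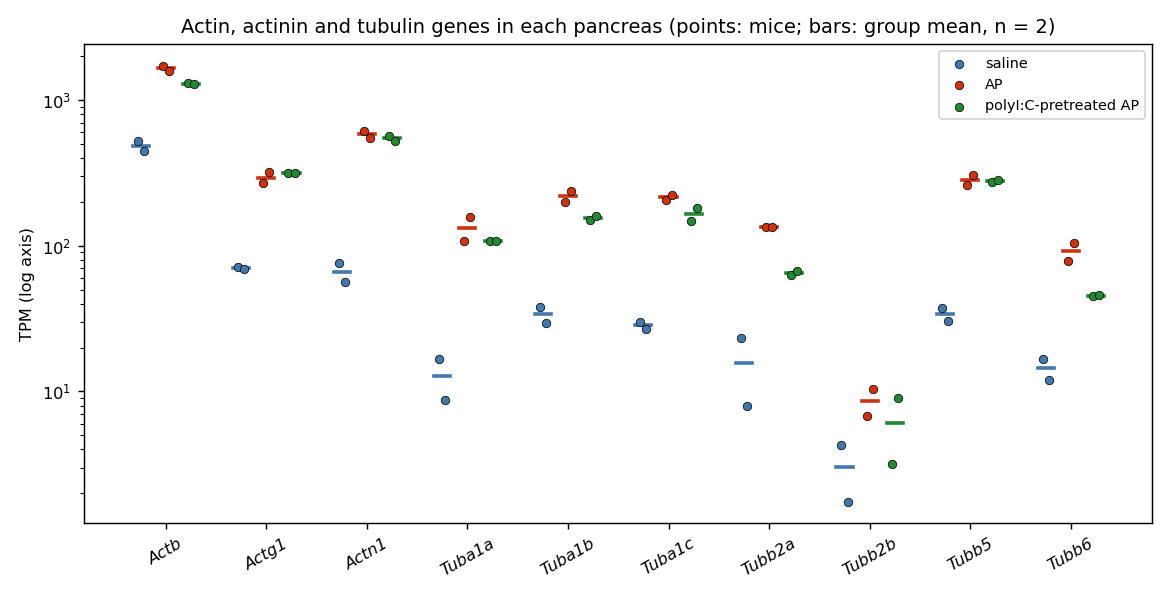
TPM of the 10 genes in each mouse on a log axis (points are mice, bars are group means, n = 2 per group). For all 10 genes both AP mice (red) lie above both saline mice (blue). The pretreated mice (green) lie near the AP mice or between the groups, except that 1 lies within the saline range for Tubb2b.

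In AP mice 9 of the 10 genes were raised over saline mice and 0 were lowered, where 18.2% of all tested genes were raised and 4.03% lowered. All 10 genes had both AP mice above both saline mice, which was so for 52.7% of all tested genes. At an unadjusted p of 0.05 all 10 were higher, beside 39.5% of all tested genes. Their median change was 2.79 on the log2 scale, while the median over all tested genes was itself 0.45, so each value is also given relative to that shift. Together the 10 genes made up 0.0839% and 0.0690% of the TPM total of the saline libraries, 0.359% and 0.363% of the AP libraries, and 0.297% of both pretreated libraries. These totals cover the listed genes, and only 4 of the 9 genes of an acinar marker list were analysed here. The percentages may therefore not be shares of all pancreas mRNA.

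Actb (ENSMUSG00000029580, chromosome 5, 142903115 to 142906754, minus strand, GRCm38) encodes beta-actin, the main cytoplasmic actin. It stood at 526 and 447 TPM in saline mice, 1717 and 1585 TPM in AP mice, and 1300 and 1283 TPM in pretreated mice. The 3 groups did not overlap, with AP highest and saline lowest. Its log2 fold change in AP was 1.77 ± 0.11 (SE; adjusted p = 0.000101, limma), a 3.40-fold rise that was 1.32 above the median of all genes on the log2 scale. Among the 9 genes called raised, this was the smallest fold change.

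Actg1 (ENSMUSG00000062825, chromosome 11, 120345690 to 120348542, minus strand) encodes gamma-actin, the other cytoplasmic actin. Levels were 71.1 and 69.3 TPM in saline mice, 268 and 318 TPM in AP mice, and 315 and 314 TPM with polyI:C. Both pancreatitis groups lay far above saline and overlapped each other. The log2 fold change in AP was 2.05 ± 0.11 (adjusted p = 6.1e-05, limma).

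Actn1 (ENSMUSG00000015143, chromosome 12, 80167547 to 80260371, minus strand) encodes alpha-actinin-1, which crosslinks actin filaments at adhesions and stress fibres. It was measured at 75.6 and 55.9 TPM in saline mice, 609 and 552 TPM in AP mice, and 569 and 519 TPM in pretreated mice. Saline mice were the lowest by a wide gap, and the ranges of both AP groups overlapped. It rose 8.86-fold in AP (log2 fold change 3.15 ± 0.15, adjusted p = 4.8e-05, limma), from a level close to that of Actg1 in saline mice to the second-highest level of the 10 genes in AP mice.

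The alpha-tubulins, which take the minus-end side of the dimer, lie together on chromosome 15 (GRCm38). Tuba1a (ENSMUSG00000072235, 98949837 to 98953703, minus strand) stood at 16.6 and 8.76 TPM in saline mice, 108 and 157 TPM in AP mice, and 108 TPM in both pretreated mice. Tuba1b (ENSMUSG00000023004, 98931425 to 98934565, minus strand) was at 38.0 and 29.7 TPM, 199 and 238 TPM, and 149 and 159 TPM in the same order of groups. For Tuba1c (ENSMUSG00000043091, 99029891 to 99038110, plus strand) the values were 30.1 and 26.8 TPM, 205 and 224 TPM, and 147 and 183 TPM. All 3 genes were lowest in both saline mice, and Tuba1b and Tuba1c were highest in both AP mice, while for Tuba1a the AP and pretreated mice overlapped. The log2 fold changes in AP were 3.37 ± 0.30 for Tuba1a (adjusted p = 0.000342, limma), 2.68 ± 0.15 for Tuba1b (adjusted p = 8.1e-05) and 2.89 ± 0.14 for Tuba1c (adjusted p = 4.7e-05). Tuba1a had the largest fold change of the 10 genes, 10.4-fold, but rests on an estimated 44 and 19 reads in the saline mice.

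Among the beta-tubulins, which expose the nucleotide that is exchanged at the growing end, Tubb5 (ENSMUSG00000001525, chromosome 17, 35833921 to 35838306, minus strand) had the highest mean level of the 4 members in each group. It was at 37.6 and 30.4 TPM in saline mice, 263 and 305 TPM in AP mice, and 273 and 283 TPM in pretreated mice, so that both pancreatitis groups lay apart from saline and the pretreated mice fell within the range of the AP mice. Its rise of 8.26-fold (log2 fold change 3.05 ± 0.13, adjusted p = 3.6e-05, limma) had the smallest adjusted p of the 10 genes.

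Tubb6 (ENSMUSG00000001473), a beta-tubulin of many non-neuronal tissues, was at 16.8 and 12 TPM in saline mice, 79.1 and 104 TPM in AP mice, and 44.9 and 45.9 TPM in pretreated mice. The groups did not overlap, and the pretreated mice lay between the other 2 groups. Its log2 fold change in AP was 2.63 ± 0.20 (adjusted p = 0.000194, limma).

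Tubb2a and Tubb2b are neighbours on the minus strand of chromosome 13 and are best known from neurons. Tubb2a (ENSMUSG00000058672, 34074274 to 34078007) stood at 23.4 and 7.98 TPM in saline mice, 133.8 and 134.1 TPM in AP mice, and 62.6 and 67.2 TPM in pretreated mice. The groups were in the same order as for Tubb6, but the saline mice differed from each other by 1.49 on the log2 scale, the widest gap between replicates among the 10 genes in that group. The fitted rise was 3.24 ± 0.43 (adjusted p = 0.0014, limma). Tubb2b (ENSMUSG00000045136, 34126748 to 34130466) was the lowest of the 10 in every group, at 4.28 and 1.75 TPM in saline mice, 6.82 and 10.4 TPM in AP mice, and 3.18 and 8.99 TPM with polyI:C. Both AP mice were above both saline mice, and the pretreated mice overlapped with each of the other groups. With an estimated 14 and 5 reads in the saline mice, its log2 fold change of 1.44 ± 0.58 did not pass the test (adjusted p = 0.0894, limma).

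Ordered by level, Actb came first in every group. In saline mice Actg1 and Actn1 followed with overlapping ranges, then Tubb5, Tuba1b and Tuba1c, which also overlapped, then Tubb2a, Tubb6 and Tuba1a, and last Tubb2b. In AP mice Actn1 (581 ± 40.6 TPM, SD, n = 2) stood clear above Actg1 (293 ± 35.8 TPM), and Actg1 overlapped with Tubb5 (284 ± 29.7 TPM). In pretreated mice the first 4 places, Actb, Actn1, Actg1 and Tubb5, each stood clear of the next.

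**Figure D2:**
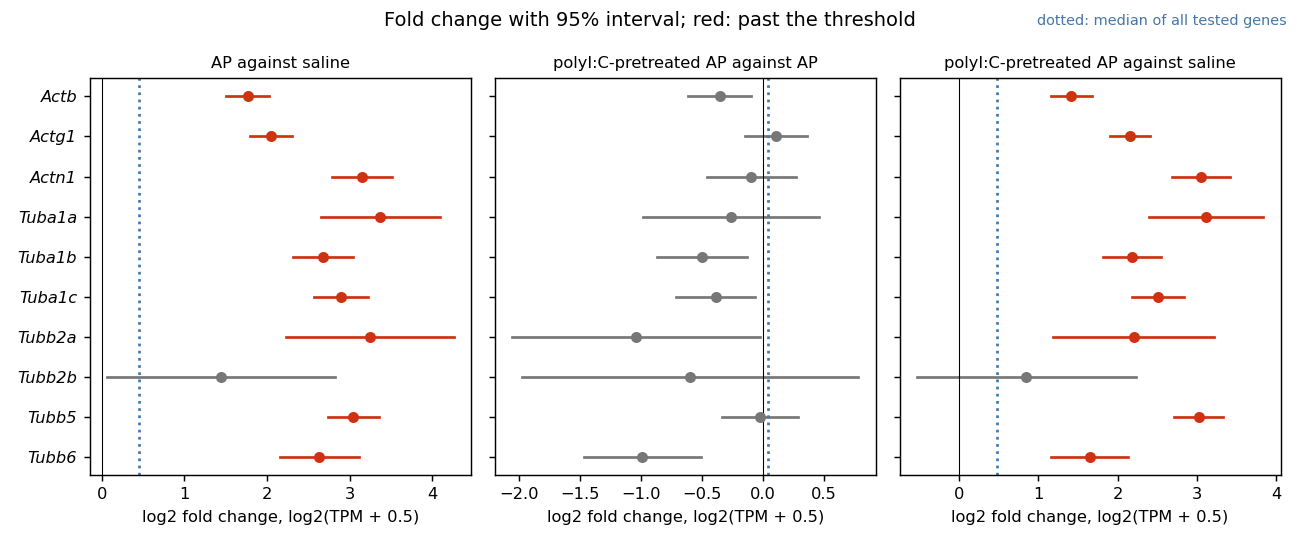
Log2 fold change of each gene on the log2(TPM + 0.5) scale with its 95% interval from limma, in AP against saline mice, pretreated against AP mice, and pretreated against saline mice. Red marks genes past the threshold, 9 of 10 in the first and last panels and 0 in the middle one, and the dotted line is the median of all tested genes, at 0.45, 0.04 and 0.48.

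The scale of the comparison matters for these sizes, because in AP mice more genes were called raised (3055) than lowered (676). When TPM were rescaled by median-of-ratios factors, which brought the median of all genes to 0.06, the calls over all genes were 1593 raised and 1203 lowered, a share of 57% raised in place of 81.9%. The same 9 of 10 cytoskeletal genes were still raised under that scaling, with log2 fold changes from 1.33 for Actb to 2.95 for Tuba1a. Tubb2b, which was not called, turned from 1.44 to -0.14 on the log2 scale after division by Actb. With any 1 mouse left out, 9 of the 10 were called raised in AP against saline mice.

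Cell markers moved with the same comparison, in which 18.2% of all tested genes were raised and 4.03% lowered. In AP against saline mice 4 of 5 macrophage markers (summed level 357 to 519 TPM in saline and 2262 to 2511 TPM in AP mice), 6 of 7 leukocyte markers (72.0 to 74.8 TPM and 254 to 327 TPM) and 4 of 6 duct markers (152 to 181 TPM and 1454 to 1492 TPM) were raised. So were 4 of 6 fibroblast and stellate cell markers, whose summed level overlapped between the groups (625 to 843 TPM in saline, 785 to 958 TPM in AP), and 2 of the 4 neutrophil markers analysed here (5.15 to 16.3 TPM and 56.8 to 67.6 TPM). Of the acinar list 4 of 9 genes were analysed here and 2, Bhlha15 and Rbpjl, were lowered. The summed level of the 4 was 658 to 766 TPM in saline and 274 to 320 TPM in AP mice. The other 2 did not fall, Ptf1a at 44.5 and 40.8 TPM in saline and 55.2 and 43.4 TPM in AP mice, and Nr5a2 at 92.4 and 97.0 TPM and 107 and 105 TPM. The 5 endothelial markers gave 0 calls by limma, with 0 at an unadjusted p under 0.05, at 47.8 to 76.0 TPM in saline and 56.4 to 60.6 TPM in AP mice. The part of these markers in the rise of the actin and tubulin genes was not tested, and in bulk tissue more cells of a type and more RNA per cell cannot be told apart.

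Between pretreated and AP mice 0 of the 10 genes were raised and 0 lowered, where 0.441% of all tested genes were raised and 0.405% lowered. At an unadjusted p under 0.05, limma gave 0 of the 10 higher and 5 lower, where 7.86% of all tested genes were higher and 6.1% lower, and voom on the estimated reads called 2 lowered, Tubb2a and Tubb6. The 5 genes, Actb, Tuba1b, Tuba1c, Tubb2a and Tubb6, were also those with both pretreated mice below both AP mice, which held for 22.1% of all tested genes. The median change of the 10 was -0.37 on the log2 scale, beside 0.04 over all tested genes.

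Tubb6 had the smallest p of the 10 in this comparison. Its level with polyI:C was 45.4 ± 0.680 TPM against 91.5 ± 17.5 TPM in AP mice (SD, n = 2 each). The fitted difference was -0.99 on the log2 scale with a 95% interval from -1.47 to -0.51 (adjusted p = 0.0802 in the limma model). For Tubb2a the mean level was 134 ± 0.186 TPM in AP and 64.9 ± 3.23 TPM in pretreated mice, with a wider interval of the log2 fold change, from -2.06 to -0.03 (adjusted p = 0.346, limma). All 6 mice share the estimate of the spread, and the saline mice differed widely in this gene. Without saline replicate 1 or replicate 2, Tubb2a was called lowered (adjusted p = 0.028 and 0.035, limma). With only the AP and pretreated mice in the fit it was also called lowered (adjusted p = 0.0255, limma).

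The changes of Actb (log2 fold change -0.35, interval -0.61 to -0.09), Tuba1b (-0.50, interval -0.86 to -0.13) and Tuba1c (-0.39, interval -0.71 to -0.06) were smaller, with adjusted p from 0.21 to 0.272 (limma). For Actg1, Actn1 and Tubb5 the fitted difference was close to 0, with intervals from -0.15 to 0.36, from -0.46 to 0.27 and from -0.34 to 0.29, and a change of 2-fold lies outside each of these intervals. The intervals of Tuba1a (-0.98 to 0.46) and Tubb2b (-1.98 to 0.78) were wide. Scaling turned the sign of some small differences, since Actn1 was -0.09 with the TPM as deposited, 0.17 after division by Rpl32 and 0.26 after division by Actb.

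Without polyI:C-pretreated AP replicate 2, the library with intestinal genes, 0 of the 10 genes were called in either direction, 2 were lower at an unadjusted p under 0.05, and 0 of all tested genes were called. Fold changes without it were -0.34 for Actb, -0.54 for Tuba1b and for Tuba1c, -1.09 for Tubb2a and -1.0 for Tubb6 on the log2 scale. With all 6 mice in the fit, 2 of 5 macrophage and 2 of 7 leukocyte markers were lowered in pretreated against AP mice, beside 0.405% of all tested genes. Their summed levels were 378 to 470 TPM and 78.2 to 84.0 TPM in pretreated mice. Most of the macrophage sum in AP mice was Lyz2, at 1891 and 2118 TPM against 203 and 119 TPM in pretreated mice. Cd14 stood at 218 and 222 TPM in AP and 216 and 209 TPM in pretreated mice. Neutrophil markers gave 0 calls, at 56.8 to 67.6 TPM in AP and 18.5 to 40.4 TPM in pretreated mice. Of the 4 acinar markers analysed here 2 were raised in the same fit of all 6 mice, beside 0.441% of all tested genes. The summed level of the 4 was 591 to 605 TPM in pretreated mice against 274 to 320 TPM in AP mice. Duct markers gave 0 calls by limma, with 1 lower at an unadjusted p under 0.05, at 1158 to 1188 TPM. Whether these cells took part in the lower levels of Actb, Tubb2a and Tubb6 was not tested.

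Against saline mice, the pretreated mice had 9 of the 10 genes raised and 0 lowered, where 17% of all tested genes were raised and 2.99% lowered. Both pretreated mice lay above both saline mice for 9 of the 10, beside 54.4% of all tested genes. This comparison shares its mice with the other comparisons and is not independent of them. The log2 fold changes ran from 1.41 ± 0.11 for Actb (adjusted p = 0.000222, limma) to 3.11 ± 0.30 for Tuba1a (adjusted p = 0.000508, limma). Actn1 was at 3.05 ± 0.15 and Tubb5 at 3.02 ± 0.13. Tubb2b, at 0.85 ± 0.58, did not pass the test (adjusted p = 0.291, limma). Without polyI:C-pretreated AP replicate 2 limma called 8 raised, Tubb2a no longer passing (adjusted p = 0.0687), and without replicate 1 also 8 (adjusted p of Tubb2a = 0.0917, limma). Under the median-of-ratios scaling 8 were raised, because Actb, at 0.96 on the log2 scale, was just under a 2-fold change.

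The make-up of each family was compared next. Of the summed TPM of Actb and Actg1, Actb made up 88.1% and 86.6% in saline mice, 86.5% and 83.3% in AP mice, and 80.5% and 80.3% in pretreated mice. The share was lowest in both pretreated mice, and Actg1 took the rest. These shares are a description with no test, and weighting by estimated reads moved them by less than 1 SD in saline and AP mice.

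Among the alpha-tubulins Tuba1b made up 44.9% and 45.5% in saline mice, 38.9% and 38.4% in AP mice, and 36.9% and 35.3% in pretreated mice, the groups lying apart from each other. Tuba1a held 19.6% and 13.4% in saline mice, 21.0% and 25.3% in AP mice, and 26.8% and 24.1% with polyI:C, the last 2 groups overlapping, and Tuba1c was between 35.5% and 41.1% in all 6 mice. As these genes share much of their sequence, the shares depend on how reads were assigned.

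Tubb5 held 45.9% and 58.3% of the TPM of the 4 beta-tubulins in saline mice, 54.4% and 55.1% in AP mice, and 71.1% and 69.9% in pretreated mice. Both pretreated mice lay above the other 4 mice. These totals leave out Tubb4b, a beta-tubulin that is no member and stood above Tubb5 in every mouse. With Tubb4b in the total, an alternative chosen after seeing the data, Tubb5 held 27.1% and 23.6% in saline mice, 32.5% and 31.5% in AP mice, and 38.0% and 37.3% in pretreated mice, and the groups did not overlap. Among the 4 members alone, Tubb6 went the other way, with 20.4% and 23.0%, 16.4% and 18.8%, and 11.7% and 11.3% in the same order, without overlap between groups. Tubb2a of the same total held 16.3% and 16.6% with polyI:C against 27.7% and 24.3% in AP mice, and its share in saline mice, 28.5% and 15.3%, spanned a wide range.

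**Figure D3:**
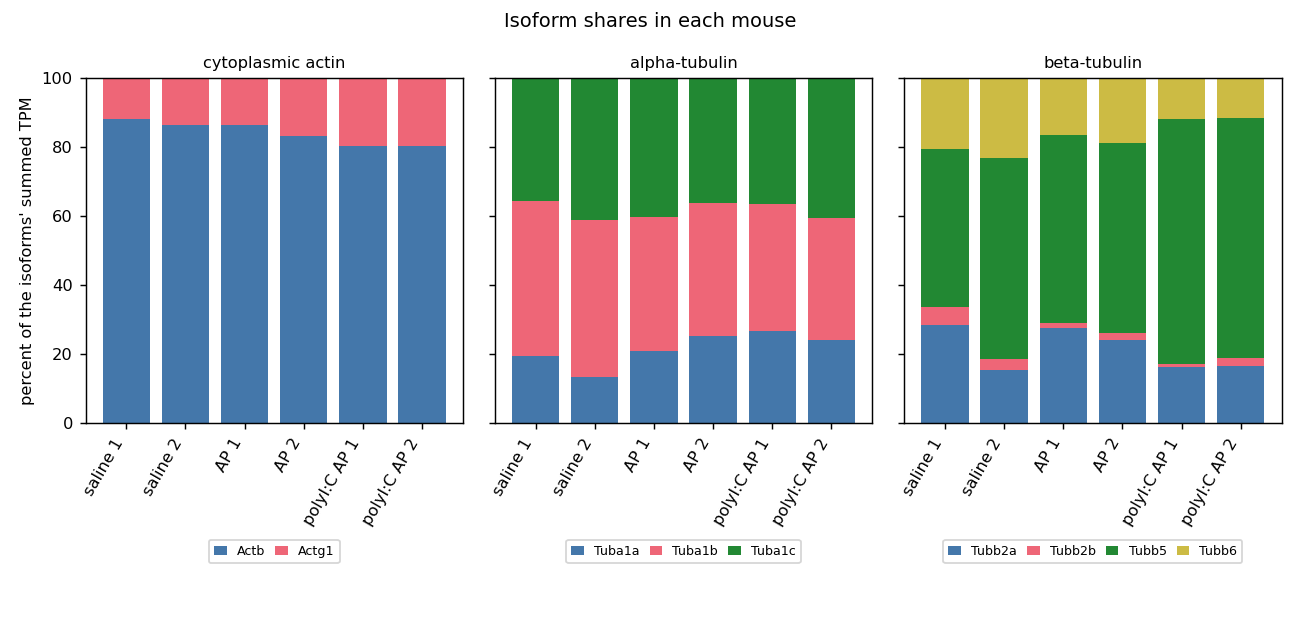
Share of each isoform in the summed TPM of the members of its family (Tubb4b is not in the beta-tubulin total), in percent, with 1 bar per mouse for cytoplasmic actin, alpha-tubulin and beta-tubulin. Tubb5 (green, right panel) fills 69.9% to 71.1% of the beta-tubulin bar in pretreated mice and 45.9% to 58.3% in the other mice.

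Because Actb and tubulins serve as controls, each gene was set against 17 common reference genes within each library, a ratio that no scaling of the libraries can change. All 10 cytoskeletal genes were higher in AP than in saline mice relative to every one of the 17, by the group mean of the log2 ratio. For Actb the difference ran from 0.19 relative to Gapdh to 2.31 relative to Tfrc, with 1.97 relative to Rpl32. Relative to Gapdh the saline and AP mice overlapped, and they did not overlap relative to the other 16. For Tubb2b they overlapped relative to 10 of the 17, and the difference was 0.04 relative to Gapdh and 0.10 relative to Ywhaz. For the other 8 genes they overlapped relative to 0 of the 17. Tubb5 ran from 1.49 relative to Gapdh to 3.61 relative to Tfrc, and Actn1 from 1.58 to 3.70 relative to the same genes.

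Several reference genes also differed between groups. In AP against saline mice 7 of the 17 were raised and 0 lowered, beside 18.2% and 4.03% of all tested genes. Under median-of-ratios scaling 3 were raised, beside 9.49% of all tested genes. In pretreated against saline mice 8 were raised, beside 17% of all tested genes. Between pretreated and AP mice B2m alone was raised, from 494 and 659 TPM in AP mice to 3138 and 3521 TPM in pretreated mice. Fits that leave out 1 of these 4 mice hold 1 mouse in a group and cannot decide whether this call holds. Rplp0, a ribosomal protein, had the smallest range of group means among the 27 reference and cytoskeletal genes, 0.19 on the log2 scale, followed by Tbp with 0.38 and Sdha with 0.44. Rpl32, the study's RT-qPCR control, came next with 0.46, at 3881 and 4600 TPM in saline mice, 3460 and 3893 TPM in AP mice, and 3202 and 2933 TPM with polyI:C. Its change in AP did not pass the test (log2 fold change -0.20 ± 0.12, adjusted p = 0.23, limma). The range of Rpl32 was that between saline and pretreated mice, with means of 4240 and 3068 TPM. Both pretreated mice lay below every saline and AP mouse.

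Gapdh, which encodes a glycolytic enzyme, stood at 46.8 and 32.5 TPM in saline mice, 116 and 117 TPM in AP mice, and 143 and 192 TPM with polyI:C. It was raised in AP (log2 fold change 1.56 ± 0.20, adjusted p = 0.0013, limma) and had a range of group means of 2.09. Of its 100-base stretches 20.9% also occurred in other genes. The cytoskeletal genes had ranges from 1.62 for Tubb2b and 1.77 for Actb to 3.43 for Tuba1a, and only B2m, the light chain of MHC class I, went beyond them with 4.0. These are mRNA levels, and protein was not analysed here.

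Dividing by a control gene moved all other genes with it. With Actb as the denominator, all other tested genes had a median change of -1.17 on the log2 scale in AP against saline mice, and 406 genes were raised and 8377 lowered. Gapdh as the denominator gave a median of -1.0, with 522 raised and 6982 lowered. With Rpl32 the median was 0.63, with 4001 raised and 483 lowered.

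**Figure D4:**
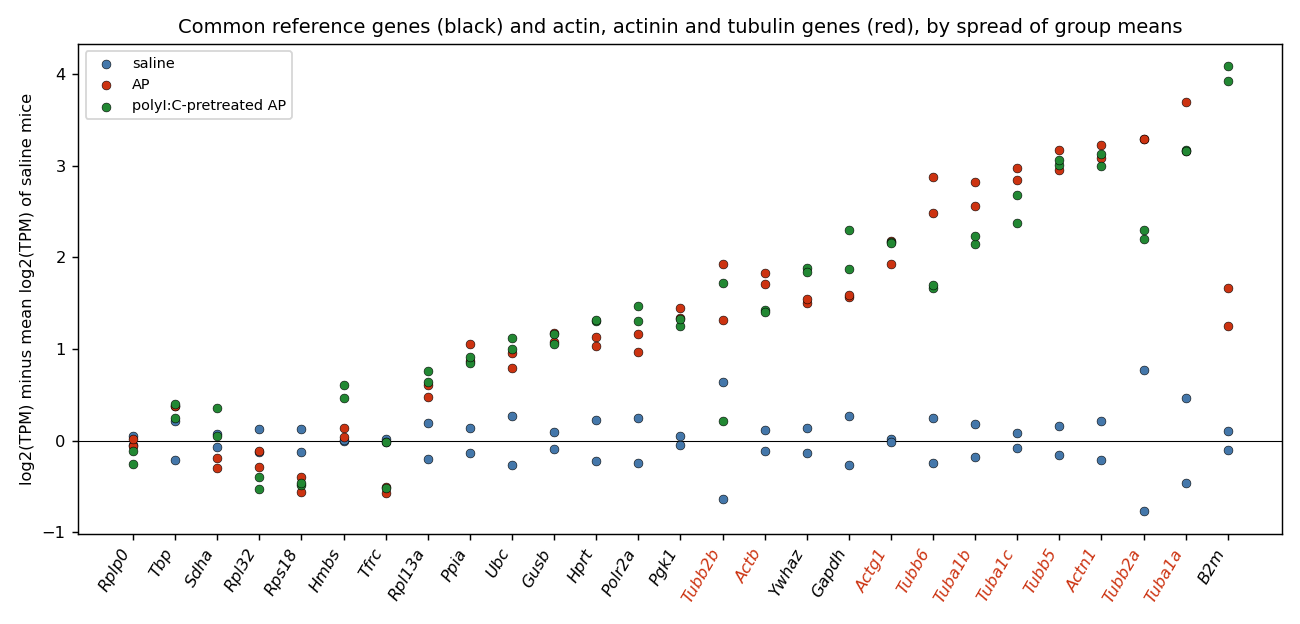
Log2(TPM) of 17 common reference genes (black names) and the 10 actin, actinin and tubulin genes (red names) in each mouse, relative to the mean of the saline mice and ordered by the range of group means. Rplp0 is at the left with a range of 0.19, Rpl32 has 0.46, and the cytoskeletal genes and Gapdh (2.09) stand in the right part.

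Partners of actin and tubulin were described from lists. In AP against saline mice 18.2% of all tested genes were raised, and 9.49% under median-of-ratios scaling, which are the shares to set beside the counts. Of the proteins that bind or turn over actin monomers 10 of 13 tested were raised in AP against saline mice (list median 1.80 on the log2 scale, beside 0.45 over all genes). The 2 largest changes were those of Capg, which caps filament ends, at 7.82 TPM on average in saline and 102 TPM in AP mice (log2 fold change 3.63), and Tmsb10, a thymosin that holds monomers, at 5.70 and 69.8 TPM (3.51). Among nucleation factors 8 of 14 were raised, led by the formin Diaph3 (0.291 and 4.09 TPM, 2.54) and the Arp2/3 subunit Arpc1b (30.5 and 160 TPM, 2.37). Median-of-ratios scaling left 5 of these 14 raised.

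Crosslinkers and adhesion partners had 13 of 16 raised (median 1.65), with Flna, which links filaments into a web, at 20.8 and 138 TPM (2.73) and the plastin Pls3 at 5.85 and 34.0 TPM (2.51). Of the actomyosin genes 10 of 15 were raised (median 1.60), led by the tropomyosins Tpm4 (94.9 and 530 TPM, 2.50) and Tpm3 (22.4 and 106 TPM, 2.21). Outside the 10 members, other actins and actinins had 1 of 4 raised, Actn4 (20.4 and 40.4 TPM, 1.0), which lost its call under median-of-ratios scaling. Acta2, the actin of smooth muscle, stood at 37.7 and 6.15 TPM in saline and 28.4 and 55.3 TPM in AP mice, and its ranges overlapped.

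Of the other tubulins, Tubal3 stood at 16.6 TPM in polyI:C-pretreated AP replicate 2 and at 0.36 TPM or less in the other mice. Without that mouse 10 genes of this list were tested, in place of 11. Other tubulins had 3 of 11 raised and 1 lowered (median 0.58), where 18.2% of all tested genes were raised. Without AP replicate 1 or without AP replicate 2 these counts were 1 raised and 0 lowered, and without polyI:C-pretreated AP replicate 1 they were 2 and 0. Tubb4b, a broadly expressed beta-tubulin, was at 57.0 and 76.6 TPM in saline, 325 and 414 TPM in AP, and 335 and 353 TPM in pretreated mice (log2 fold change in AP 2.46, adjusted p = 0.000151, limma), so its level was above that of Tubb5 in all 6 mice. Tuba8 and the gamma-tubulin Tubg2 were raised from levels of 0 to 1.51 TPM and 0 to 0.390 TPM in saline mice. Tubb3, known from neurons, was between 0.695 and 2.25 TPM in all 6 mice.

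The chaperones and cofactors that fold actin and tubulin had 8 of 18 raised (median 0.89), with the tubulin cofactors Tbcb (39.8 and 121 TPM, 1.60) and Tbcd (22.5 and 58.0 TPM, 1.34) in front, and 1 of 18 under median-of-ratios scaling. Microtubule regulators had 5 of 11 raised (median 0.94) and 2 of 11 under that scaling, with Stmn1, which binds tubulin dimers, at 9.81 and 36.4 TPM (1.86) and Map4, which binds microtubules, at 3.83 and 10.7 TPM (1.41). Ttc5, the factor that reads the start of nascent tubulin, was itself raised (55.1 and 126 TPM, log2 fold change 1.19, adjusted p = 0.000279, limma). Under median-of-ratios scaling its change fell under 2-fold, so it lost this call. Against AP mice, pretreated mice had 0 genes of any of these 9 lists called by limma. At an unadjusted p under 0.05 by limma, 3 of 13 monomer-binding genes were lower and 0 higher, and 1 of 14 nucleation genes lower and 2 higher. Among crosslinkers 3 of 16 were lower and 1 higher, and among actomyosin genes 3 of 15 lower and 1 higher. Of all tested genes 6.1% were lower and 7.86% higher. The other 5 lists had 0 in either direction at that threshold. For monomer-binding, nucleation, crosslinker and actomyosin genes the median log2 fold changes were -0.24, -0.09, -0.04 and -0.02. Without polyI:C-pretreated AP replicate 2 they were -0.17, -0.04, -0.07 and 0.03. Vil1, a crosslinker that is also on the intestinal list, stood at 3.43 TPM in pretreated replicate 1 and 162 TPM in replicate 2. Against saline mice 9 of 13 monomer-binding genes, 11 of 16 crosslinkers and 11 of 15 actomyosin genes were raised in pretreated mice, beside 17% of all tested genes. Their median log2 fold changes were 1.49, 1.69 and 1.83, and 1.54, 1.66 and 1.70 without polyI:C-pretreated AP replicate 2.

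SRF is a transcription factor that controls many actin genes and is switched on when its coactivators are released from actin monomers. Of SRF and 2 coactivators 0 of 3 reached the threshold in AP against saline mice. At an unadjusted p under 0.05, 2 were higher by limma, beside 39.5% of all tested genes. Srf stood at 23.6 and 20.6 TPM in saline and 34.5 and 39.7 TPM in AP mice. The difference was 0.74 ± 0.15 on the log2 scale (adjusted p = 0.00856, limma), which is under 2-fold and 0.29 above the median of all genes. Mrtfa was at 3.52 and 2.60 TPM in saline and 6.60 and 5.22 TPM in AP mice. Its difference was 0.85 on the log2 scale (adjusted p = 0.0387, limma), 0.40 above that median. Under median-of-ratios scaling 0 of these 3 genes were higher by limma at an unadjusted p under 0.05, so their rise depends on the scaling.

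The promoters (250 bases before to 50 after the start, RefSeq, GRCm38.p6) of 7 of the 10 genes were searched on both strands for the SRF box, known as the CArG box, in its strict 10-base form. It was found in 1 of the 7, that of Actg1. Of all 32851 promoters of that length 1.63% held it, and of the 27025 genes with such a promoter 1.81% did. The stretch around the Actg1 match (chr11:120348546-120348615, minus strand) is shown because it is the only match among the 7 members searched. The box is in capitals, its first base 90 bases before the start.
Actg1: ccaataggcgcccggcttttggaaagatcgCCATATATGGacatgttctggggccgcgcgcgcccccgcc
A match in sequence is a description and was not tested for binding. Promoters of Actn1, Tuba1a, Tuba1b, Tuba1c, Tubb2a and Tubb5 held no such 10 bases in this window. Actb, Tubb2b and Tubb6 had no entry in the promoter set and were not searched, so nothing is known here about a box in theirs.

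**Figure D5:**
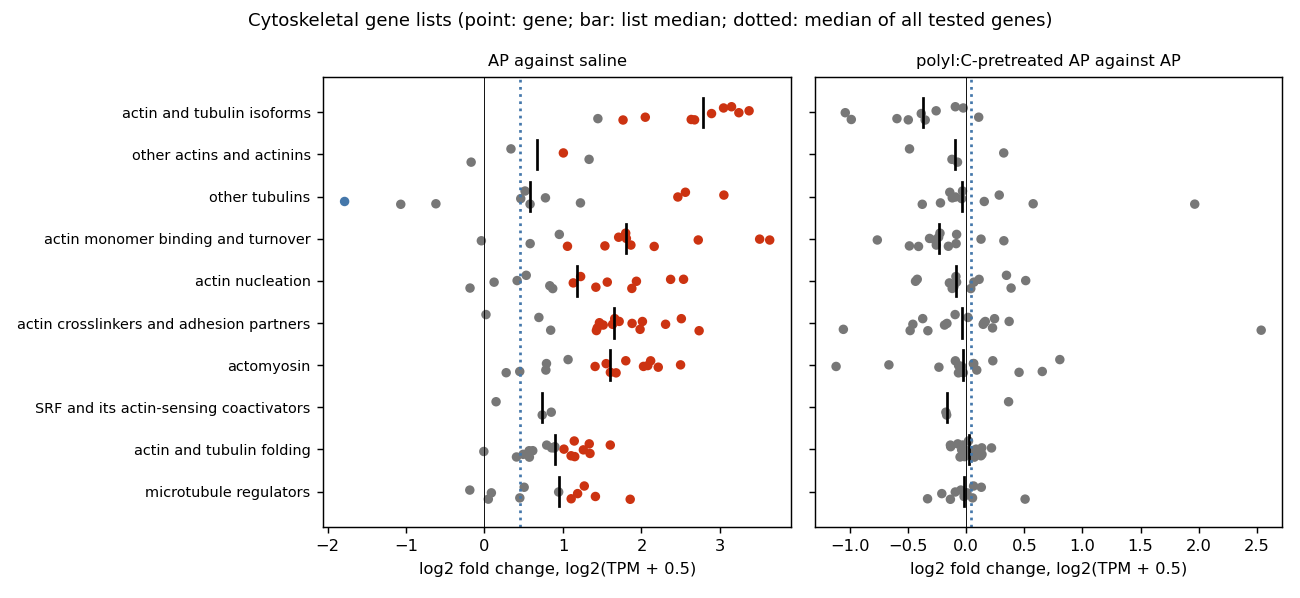
Log2 fold changes of the 10 members and of 9 lists of actin and tubulin partners in AP against saline mice (left) and pretreated against AP mice (right). Points are genes, red for raised and blue for lowered, black bars are list medians (2.79 for the members on the left, -0.37 on the right), and the dotted line is the median of all tested genes.

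The genes whose pattern over the 6 mice was most like that of Actb, by the root mean square difference of centred log2(TPM + 0.5) among 9390 genes averaging 10 TPM or more, were Pfn1 (0.0502), Bcl6 (0.0556) and Cd9 (0.0596), beside a median of 0.625 over all these genes. Pfn1, the actin monomer-binding profilin, stood at 73.6 and 62.7 TPM in saline, 233 and 214 TPM in AP, and 187 and 192 TPM in pretreated mice. For Tubb5 the nearest genes were Epcam (0.115), Sox4 (0.116) and Nfkb2 (0.116), beside a median of 1.24. Epcam, an adhesion molecule of epithelial cells, was at 120 and 117 TPM in saline, 864 and 916 TPM in AP, and 826 and 959 TPM in pretreated mice.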

How the data were processed

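RNA of whole pancreas was sequenced from 6 mice, 2 per group. Per the submitters' processing notes, the authors used Trimmomatic, STAR, HTSeq and DESeq2, with the genome build mm10, to trim, map and count reads. The deposited values are TPM per gene, and the step from counts to TPM is not given in the sources used here. The labels name both a ribosomal RNA removal kit with directional libraries and a stranded mRNA kit. The deposited TPM were matched by Ensembl identifier to GENCODE M21 (22490 of 22556). Read depth was estimated from the spacing of low values, of which 50.7% to 62.0% lay within 0.1 of a whole read, against 18.9% to 20.6% with lengths shuffled. Genes with a mean of 1 TPM or more (16778) were tested on log2(TPM + 0.5) with limma 3.58.1 in R 4.3.3, all 6 mice in 1 fit, the variance prior following the estimated reads, and p-values adjusted by Benjamini-Hochberg over all tested genes. In data simulated for AP against saline mice over 16646 genes at a dispersion of 0.05, 61 of 100 genes changed 4-fold and 3 of 100 changed 2-fold were called, with 8 false calls. In that setting most 2-fold changes were missed. No other genes were changed there, while 3055 were called raised and 676 lowered in the data. The dispersion was set and not estimated. The share of 2-fold changes missed in the data may therefore differ and is not known. The p-values measure only the spread between these samples, which may be technical. Named were the 10 genes, the 2 list genes with the largest change per list, chosen partners and controls, and the 3 genes most like Actb and Tubb5. The intestinal list was added after values were seen. The members and lists were chosen with earlier results of these data known. Alternatives were other pseudocounts, filters, scalings, variance priors, voom on estimated reads, 2-group fits, a replicate block and leaving out each mouse.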

Additional observations from a re-analysis of the deposited data

How the results depend on the processing

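The 9 genes raised in AP against saline mice were 7 after division by Gapdh, where Actb (0.19) and Actg1 (0.48) lost their calls, 5 after division by Actb, which leaves Actb itself untested, and 9 to 9 with 1 mouse left out. Lowered in pretreated against AP mice were 1 gene after division by Gapdh (Tubb6), 2 by voom (Tubb2a and Tubb6), 1 with only the 2 groups compared (Tubb2a), 1 at an unadjusted p with a 2-fold change, and 0 to 1 with 1 mouse left out, in place of 0. The 9 genes raised in pretreated against saline mice were 1 after division by Gapdh, 4 after division by Actb, again without Actb itself, and 8 to 9 with 1 mouse left out. Divided by Gapdh, Actb (-0.67), Tubb6 (-0.40) and the uncalled Tubb2b (-0.99) turned to lower log2 values in pretreated against saline mice. Weighted by estimated reads, Actb held 80.5% of cytoplasmic actin in pretreated mice, Tuba1b 41.9%, 36.0% and 33.6% of alpha-tubulin and Tubb5 63.7%, 67.3% and 80.1% of beta-tubulin in saline, AP and pretreated mice, since longer genes then weigh more. With Tubb4b in the total, chosen after seeing the data, Tubb5 held 25.3%, 32.0% and 37.6%. The cause of the other changes was not tested. Same-numbered mice did not deviate together (r = 0.007, -0.004 and 0.034), and a replicate block gave 9 raised genes against saline in each pancreatitis group and 0 called between them. With 2 mice per group and few reads in saline mice, changes of low genes such as Tubb2b are least certain.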
